A study of Mus musculus with 8 samples.

Results

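Purinergic receptors sense nucleotides and adenosine outside the cell, and ectonucleotidases are surface enzymes that break those nucleotides down. ATP released by stressed or dying cells opens P2X ion channels and activates some P2Y receptors, which couple to G proteins, while other P2Y receptors respond to ADP, UDP or UDP-sugars. The enzymes CD39 and CD73 act in sequence, turning ATP and ADP into AMP and AMP into adenosine, which signals through its own receptors and dampens many macrophage responses. The 10 genes described here are 7 nucleotide receptors (P2rx4, P2rx7, P2ry2, P2ry6, P2ry12, P2ry13 and P2ry14), the CD39 gene Entpd1, the CD73 gene Nt5e and the adenosine receptor gene Adora2b. They were taken by symbol from a table of 26667 genes, and all 10 passed the filter on low counts that left 12507 genes for testing.

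The levels come from poly(A) RNA of macrophages cultured out of bone marrow with 30 ng/ml of the growth factor M-CSF in 10% serum and taken at day 8 to 10. The mice were C57BL/6, either wild type (WT, 4 libraries) or lacking Dnmt3a (Dnmt3a KO, 4 libraries), an enzyme that adds methyl groups to cytosines of CpG dinucleotides. The labels give no further treatment, name neither the allele nor the Cre that made the knockout, and leave unsaid whether each library is from its own mouse. The p-values therefore rest on library-to-library spread, which may be technical. The comparison asks whether macrophages without Dnmt3a carry different levels of these transcripts.

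Library totals ran from 12614006 to 28502631 counts. Dnmt3a lay between 149.8 and 170.2 CPM (counts scaled to library size, with TMM factors) in the WT libraries and between 29.1 and 37.6 CPM in the KO libraries. The M-CSF receptor gene Csf1r averaged 2109 ± 99.5 CPM in WT libraries and 2063 ± 243 CPM in KO libraries (SD over 4 libraries), and 0 of 10 macrophage markers passed the test. WT replicate 1 stood apart. Its root mean square difference in log2 CPM was 0.62 to 0.71 from the other WT libraries, which differed from each other by 0.32 to 0.38, so values without it are given where they matter.

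None of the 10 genes passed the edgeR quasi-likelihood test at a Benjamini-Hochberg adjusted p of 0.05, a threshold that 1.61% of all tested genes passed. The genes nearest to it were P2ry14 and P2ry13, neighbours on chromosome 3 that encode receptors for UDP-glucose and for ADP. Both were called higher in KO, with adjusted p of 0.0142 and 0.0262, by DESeq2, which called 2.55% of its tested genes higher. At an unadjusted edgeR p under 0.05 there were 3 of the 10, P2ry13, P2ry14 and Nt5e, all higher in KO, where 6.82% of all tested genes were higher at that level and 12.7% differed in either direction. The log2 ratio of KO over WT was positive for 8 of the 10, with a median of 0.34, against 46.9% and a median of -0.02 over all tested genes. Without WT replicate 1, the lowest library for 5 of the 10, that median of the 10 was 0.19, with 8 still positive. The 10 genes, and the gene lists used below, were chosen with earlier results of these data known. Such shares and medians describe the chosen genes and are no test of the gene family. In 1 of the 10, P2ry14, all KO libraries lay above all WT libraries, as they did for 5.13% of tested genes. In 0 of the 10 were all KO libraries below all WT libraries (4.28% of tested genes), and groups of either direction failed to overlap in 9.41%. In bulk libraries, fewer cells that carry a transcript and less RNA per cell cannot be told apart.

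**Figure D1:**
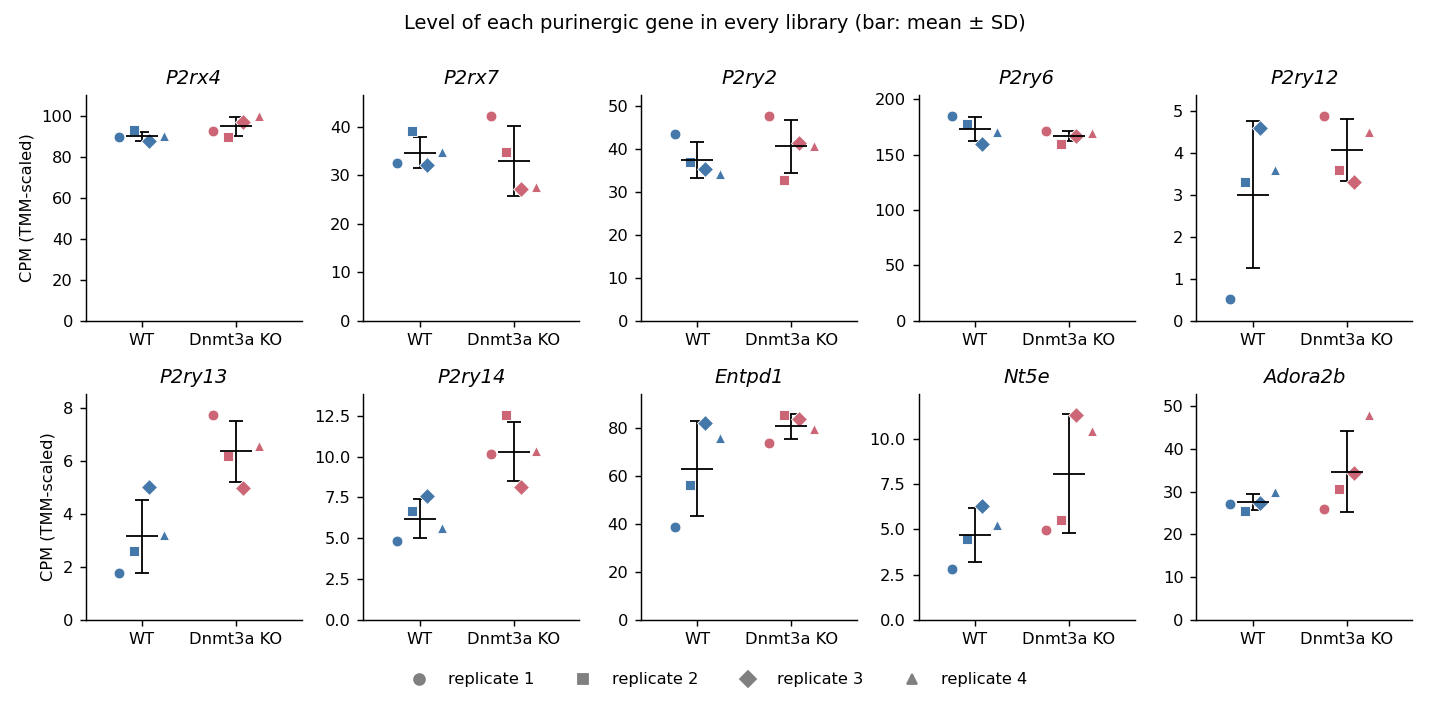
CPM (TMM-scaled) of the 10 genes in each of 4 WT (blue) and 4 Dnmt3a KO (red) libraries, with symbols for replicate numbers and a bar for the mean with its SD. P2rx4 and P2ry6 hardly vary between libraries, P2ry14 is higher in all KO than in all WT libraries, and WT replicate 1 is the lowest library for P2ry12, P2ry13, P2ry14, Entpd1 and Nt5e.

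Per transcript length, P2ry6 was by far the most abundant of the genes. The level was 60.1 ± 3.73 RPKM in WT (CPM per kilobase of merged GENCODE exons, SD, n = 4) and 57.8 ± 1.69 RPKM in KO. Adora2b, P2rx4, Entpd1 and P2ry2 followed in WT at 14.9, 12.8, 11.3 and 9.52 RPKM, and the WT ranges of P2rx4 and Entpd1, and of Entpd1 and P2ry2, overlapped. P2rx7 came next at 5.80 RPKM, below every WT library of those genes. P2ry13, P2ry12, P2ry14 and Nt5e were lowest, at 1.25, 1.18, 0.559 and 0.547 RPKM, with ranges that overlapped between neighbours in this order. For P2ry12 and P2ry14 the overlap came from WT replicate 1, with P2ry12 at 0.200 RPKM. In the other WT libraries P2ry12 was at 1.30 to 1.80 RPKM, while P2ry14 reached at most 0.684 RPKM in WT. The order rests in part on the length used: with the longest coding transcript in place of merged exons, P2rx4 came second at 33.4 RPKM, P2ry14 came to 2.49 RPKM in WT and stood above P2ry12 and P2ry13, while P2ry6 stayed first and P2rx7 sixth. In KO the order by merged exons differed in that Entpd1, at 14.4 RPKM, stood above P2rx4, at 13.5 RPKM, and Nt5e just above P2ry14.

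**Figure D2:**
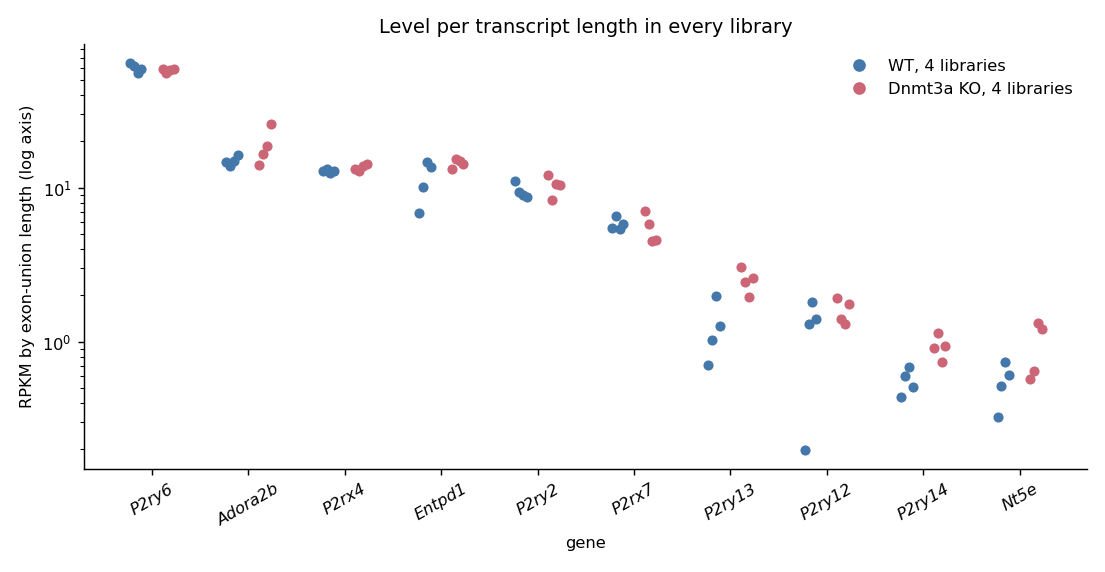
Level per length (RPKM by merged exon length, log axis) of the 10 genes in each WT (blue) and Dnmt3a KO (red) library, ordered by the WT mean. P2ry6 lies near 60.1 RPKM in WT, P2rx7 near 5.80 RPKM, and P2ry13, P2ry12, P2ry14 and Nt5e form the lowest group.

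The receptors for ADP and UDP-glucose lie side by side on chromosome 3, all on the minus strand. P2ry14 spans 59113855 to 59153618, P2ry13 spans 59207892 to 59210882 and P2ry12 spans 59216272 to 59262871 (GENCODE M21 on GRCm38, the mm10 assembly). All 3 lie inside Med12l, a Mediator subunit gene on the plus strand. The library kit named in the labels does not mark strand, and 9 bases of P2ry12 exon are also Med12l exon, with 0 such bases for P2ry13 and P2ry14. Reads of unspliced Med12l RNA over the exons of the 3 receptor genes could also count as theirs. That part was not tested. The RefSeq promoter windows of the cluster, 250 bases before to 50 after the annotated start, are shown because P2ry13 and P2ry14 had the lowest p of the 10 genes and Dnmt3a acts on CpG dinucleotides, which are in capitals. The window of Adora2b, on chromosome 11, is shown beside them as a CpG-dense one (RefSeq, GRCm38.p6).
P2ry12, chr3:59262936-59263235, minus strand: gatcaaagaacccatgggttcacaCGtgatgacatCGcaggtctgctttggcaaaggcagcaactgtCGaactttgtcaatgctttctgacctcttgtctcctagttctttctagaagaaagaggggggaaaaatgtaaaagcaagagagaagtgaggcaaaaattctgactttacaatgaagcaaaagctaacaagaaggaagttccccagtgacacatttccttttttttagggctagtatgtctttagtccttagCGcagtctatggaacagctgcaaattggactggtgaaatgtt
P2ry13, chr3:59210833-59211132, minus strand: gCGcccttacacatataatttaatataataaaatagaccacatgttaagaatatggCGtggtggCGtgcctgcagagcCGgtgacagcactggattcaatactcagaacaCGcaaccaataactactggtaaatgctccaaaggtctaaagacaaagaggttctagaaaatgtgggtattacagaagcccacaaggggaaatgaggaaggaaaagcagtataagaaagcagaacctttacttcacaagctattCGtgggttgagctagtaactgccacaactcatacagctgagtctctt
P2ry14, chr3:59153443-59153742, minus strand, the outermost of 4 annotated starts: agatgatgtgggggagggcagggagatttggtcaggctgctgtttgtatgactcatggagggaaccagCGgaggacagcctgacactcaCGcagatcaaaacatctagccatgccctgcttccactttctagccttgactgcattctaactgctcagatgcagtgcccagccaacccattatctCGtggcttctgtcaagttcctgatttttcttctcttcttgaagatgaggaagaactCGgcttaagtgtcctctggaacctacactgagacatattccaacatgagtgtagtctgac
Adora2b, chr11:62248734-62249033, plus strand: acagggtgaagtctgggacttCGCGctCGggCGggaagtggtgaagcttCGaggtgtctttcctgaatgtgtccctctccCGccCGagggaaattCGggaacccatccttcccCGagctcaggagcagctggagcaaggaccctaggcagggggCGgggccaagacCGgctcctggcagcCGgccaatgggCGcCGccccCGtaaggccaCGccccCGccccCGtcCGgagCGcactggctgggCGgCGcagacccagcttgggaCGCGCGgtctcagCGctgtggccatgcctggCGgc

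These windows hold 4 CpG in P2ry12, 6 in P2ry13 and 4 in P2ry14, while the other P2ry14 starts hold 1, 4 and 3. Adora2b holds 27, Nt5e 23, Entpd1 23 at its outer start and 10 at its inner one, P2ry2 28 and 30, P2rx4 18, and P2rx7 8 and 4. The median over 32851 RefSeq promoter windows is 7. The interferon-stimulated response element pattern, searched on both strands, is in none of the windows of the 9 genes found and in 3.44% of all windows. The AP-1 pattern TGANTCA, which equals its own reverse complement, is in the outermost P2ry14 window and in the next one, in the outer P2rx7 window and in 7.81% of all windows. The PU.1 pattern is in the inner P2rx7 window and in 3.20% of all windows, and the cyclic AMP response element in none of these windows and 1.79% of all. DNA methylation itself is not analysed here.

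P2ry14 encodes a Gi-coupled receptor for UDP-glucose and related sugars. It was at 4.83, 6.67, 7.57 and 5.64 CPM in WT replicates 1 to 4 and at 10.2, 12.6, 8.12 and 10.4 CPM in KO replicates 1 to 4. Every KO library was above every WT library, the closest being KO replicate 3 and WT replicate 3. The mean was 6.18 ± 1.20 CPM for WT and 10.3 ± 1.82 CPM for KO (SD over 4 libraries), a log2 ratio of 0.74 ± 0.19 (SE) with a 95% interval from 0.33 to 1.16 and an adjusted edgeR p of 0.0864. Without WT replicate 1 the log2 ratio was 0.66, with an adjusted edgeR p of 0.0541. With no filter on low counts the gene was called, at an adjusted edgeR p of 0.0498. In 14 of 16 other settings it was not called, with adjusted p up to 0.262.

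P2ry13, a Gi-coupled ADP receptor gene, was at 1.78, 2.61, 5.01 and 3.22 CPM in WT, and at 7.74, 6.18, 4.97 and 6.55 CPM in KO. The groups touched in replicate 3, where the KO library was just below the WT library, and the other KO libraries were above all of WT. The mean was 3.15 ± 1.37 CPM in WT and 6.36 ± 1.14 CPM in KO (SD over 4 libraries), a log2 ratio of 1.01 ± 0.29 (SE), with an interval from 0.38 to 1.63 and an adjusted edgeR p of 0.128. Leaving out WT replicate 3 brought the gene past the threshold, with a log2 ratio of 1.31 and an adjusted edgeR p of 0.0429, as did testing without the filter on low counts. It was not called in 13 of 16 other settings, where the adjusted edgeR p reached 0.295 without KO replicate 1, and without WT replicate 1 the log2 ratio was 0.83 (adjusted edgeR p 0.0761). In the authors' deposited table, whose fold changes run WT over KO, P2ry13 stands at -1.01 with an adjusted p of 0.0271 and P2ry14 at -0.75 with an adjusted p of 0.0138. That deposited table calls 2.14% of its genes higher in KO, and none of the other 8 genes. It compares the same genotypes of this series, and its tool is not named. Its values lie close to those of DESeq2 here, with adjusted p of 0.0262 for P2ry13 and 0.0142 for P2ry14. It is therefore no separate support.

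P2ry12 encodes the ADP receptor of platelets that antiplatelet drugs block, and marks microglia among brain cells. It was at 0.509, 3.30, 4.59 and 3.60 CPM in WT, and at 4.89, 3.60, 3.31 and 4.50 CPM in KO. WT replicate 1, with 8 counts, was far below the rest, and the other 3 WT libraries overlapped the KO range. The log2 ratio was 0.43 ± 0.44 (SE), with an interval from -0.54 to 1.40, and the adjusted edgeR p was 0.736. Without WT replicate 1 the log2 ratio was 0.09, and 0.34 without KO replicate 1, and it was 0.69 without WT replicate 3 and 0.70 with limma-voom.

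Within 500 kb of the P2ry13 start, 4 genes were tested, P2ry12, P2ry14, Med12l and Gpr171, and 0 were called. Med12l, the host gene, had all KO libraries above all WT libraries and averaged 1.51 ± 0.28 CPM in WT libraries and 2.34 ± 0.41 CPM in KO libraries, a log2 ratio of 0.63 ± 0.27 (SE; adjusted edgeR p 0.352). Gpr171, another receptor gene of the cluster, had a log2 ratio of 0.27 ± 0.28 (adjusted edgeR p 0.737). Within 500 kb of any of the 10 starts 73 genes were tested, a count that holds those of the 10 that neighbour each other. Against 1.61% of all tested genes, 1 of these 73 was called, with a log2 ratio of 0.55. This was Hvcn1, a voltage-gated proton channel gene 437 kb from P2rx7, averaging 68.6 ± 4.56 CPM in WT libraries and 100.1 ± 7.51 in KO libraries (adjusted edgeR p 0.0157). Its call was lost without WT replicate 3 or 4 or KO replicate 1, 3 or 4, with adjusted edgeR p up to 0.0709.

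**Figure D3:**
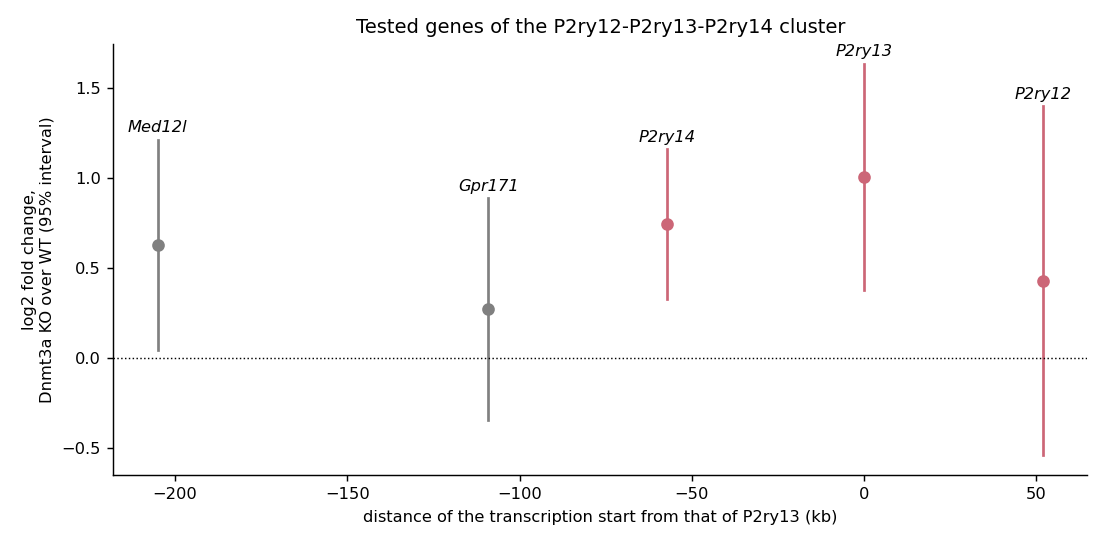
Log2 ratio of Dnmt3a KO over WT with its 95% interval for each tested gene around P2ry13, against the distance of its transcription start in kb, with the cluster's purinergic receptors in red and other genes in grey. The intervals of P2ry13 (0.38 to 1.63), of P2ry14 (0.33 to 1.16) and of the host gene Med12l (0.04 to 1.21) lie above 0, while those of P2ry12 and Gpr171 span 0.

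The ATP-gated channels P2rx4 and P2rx7 are neighbours on chromosome 5, at 122707544 to 122729738 and 122643911 to 122691432, with starts 63.6 kb apart. P2rx4, which is found on lysosomes as well as at the surface, was at 89.6, 93.0, 87.8 and 90.4 CPM in WT, and at 92.6, 89.9, 97.2 and 100.3 CPM in KO. The libraries overlapped, and the log2 ratio was 0.07 ± 0.08 (SE), with an interval from -0.11 to 0.26 and an adjusted edgeR p of 0.766. P2rx7, whose channel needs high ATP and triggers the NLRP3 inflammasome, was at 32.5, 39.0, 32.1 and 34.9 CPM in WT, and at 42.3, 34.7, 27.1 and 27.5 CPM in KO. KO replicate 1 was its highest library and KO replicates 3 and 4 its lowest. The log2 ratio was -0.07 ± 0.15 (interval -0.41 to 0.26, adjusted edgeR p 0.881), and its sign turned when KO replicate 3 or 4 was left out.

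The nucleotide receptors P2ry2 and P2ry6 lie on chromosome 7, at 100996568 to 101012866 and 100937630 to 100974649. P2ry6, a Gq-coupled UDP receptor gene linked to phagocytosis in microglia, was at 185, 178, 160.2 and 170.4 CPM in WT, and at 171, 160.1, 167 and 169 CPM in KO. All KO libraries lay within or just below the WT range. The log2 ratio was -0.06 ± 0.09 (SE), with an interval from -0.25 to 0.14 and an adjusted edgeR p of 0.839. P2ry2, a receptor gene for ATP and UTP that serves as a find-me sensor for dying cells, was at 43.4, 36.9, 35.2 and 34.1 CPM in WT, and at 47.7, 32.7, 41.3 and 40.6 CPM in KO. In both genotypes replicate 1 was its highest library. The log2 ratio was 0.12 ± 0.14, with an interval from -0.18 to 0.41 and an adjusted edgeR p of 0.767.

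Entpd1 encodes CD39, the main enzyme that removes ATP and ADP at leukocyte surfaces, on chromosome 19 from 40612366 to 40741602. It was at 38.5, 56.1, 81.8 and 75.5 CPM in WT, and at 73.5, 85.3, 83.6 and 79.4 CPM in KO. The KO libraries were close together, while WT replicates 1 and 2 were below them and WT replicates 3 and 4 among them. The log2 ratio was 0.35 ± 0.19 (SE), with an interval from -0.07 to 0.78 and an adjusted edgeR p of 0.503, and it was 0.18 without WT replicate 1.

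Nt5e encodes CD73, which makes adenosine from AMP, on chromosome 9 from 88327197 to 88372092. It was at 2.80, 4.45, 6.32 and 5.26 CPM in WT, and at 4.96, 5.55, 11.4 and 10.5 CPM in KO. KO replicates 3 and 4 were above all other libraries, and KO replicates 1 and 2 lay within the WT range. The mean was 4.70 ± 1.48 CPM in WT and 8.09 ± 3.29 CPM in KO (SD over 4 libraries), a log2 ratio of 0.77 ± 0.31 (SE; interval 0.08 to 1.46; adjusted edgeR p 0.329). It was called in 0 of 16 other settings, with log2 ratios from 0.57 to 0.94 and adjusted p from 0.0769, with the block of replicate numbers, to 0.627, without KO replicate 3. Without WT replicate 1, its lowest library, the log2 ratio was 0.59 (adjusted edgeR p 0.301). Nt5e is also carried by stromal cells, and the summed level of 12 stromal and endothelial markers was 13.4 to 25.6 CPM in WT and 27.7 to 35.2 CPM in KO. Of these markers 4 were tested, 4 had positive log2 ratios (median 0.58) and 0 were called. The stromal genes Lum and Cxcl12 had 0 and 2 counts in WT and 2 and 6 in KO. The part of such cells in the Nt5e level was not tested.

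Adora2b, the gene of the Gs-coupled A2B adenosine receptor, lies on chromosome 11 from 62248984 to 62266453. It was at 27.1, 25.5, 27.5 and 30.0 CPM in WT, and at 25.9, 30.6, 34.3 and 48.1 CPM in KO. KO replicate 4 stood highest and KO replicate 1 lay within the WT range. The log2 ratio was 0.34 ± 0.17 (SE), with an interval from -0.04 to 0.72 and an adjusted edgeR p of 0.465. Leaving out KO replicate 4 brought it to 0.14.

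Nt5e, Adora2b and, by a small margin, P2rx4 shared the feature that KO replicates 3 and 4 were their highest libraries. P2rx7 had its lowest values there. The spread between KO libraries was 40.8% of the mean for Nt5e, 27.4% for Adora2b and 21.7% for P2rx7, against 2.92% for P2ry6 and 4.88% for P2rx4 (coefficient of variation, n = 4). In WT it was widest for P2ry12 (58.3%), P2ry13 (43.4%), Nt5e (31.5%) and Entpd1 (31.2%). WT replicate 1 was the lowest of all 8 libraries for 5 of the 10 genes, P2ry12, P2ry13, P2ry14, Entpd1 and Nt5e.

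**Figure D4:**
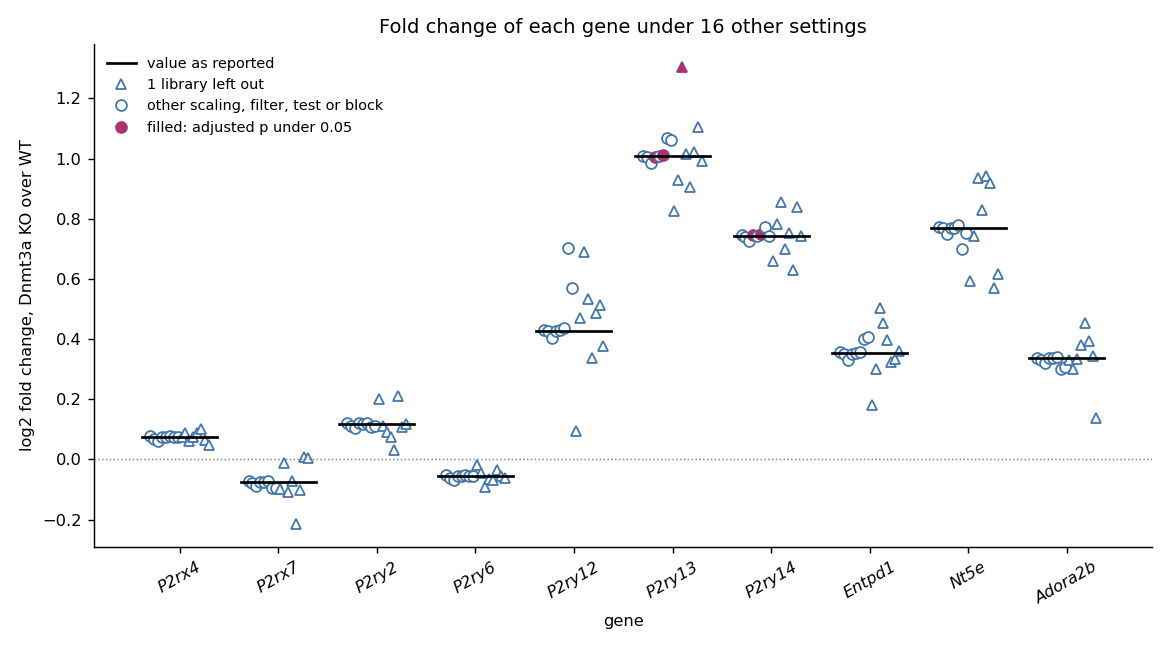
Log2 ratio of Dnmt3a KO over WT for each of the 10 genes under 16 other settings, as triangles where 1 library was left out and circles otherwise, filled where the adjusted p was under 0.05, with a black line for the value as reported. P2ry13 is filled in 3 settings and P2ry14 in 2, no other gene is filled, and the lowest point of P2ry12 (0.09) is the one without WT replicate 1.

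Of 7 P2X genes 4 were tested, of 9 P2Y genes 7 and of 4 adenosine receptor genes 3, and 0 passed the edgeR test. P2rx1, an ATP-gated channel gene best known from platelets, was at 0.445, 1.21, 1.55 and 2.42 CPM in WT, and at 3.01, 4.48, 5.05 and 5.18 CPM in KO. Its groups did not overlap, and its log2 ratio of 1.60 ± 0.39 (SE) had an adjusted edgeR p of 0.0707. It was called by DESeq2 (adjusted p 0.00320), with no filter, with the replicate block, and without WT replicate 1 or 4. In the other 11 of 16 settings it was not called, with adjusted p up to 0.208, and the log2 ratio ran from 1.32 to 2.04. Adora2a and Adora3, genes of the other tested adenosine receptors, had log2 ratios of 0.49 ± 0.24 and 0.49 ± 0.25, with adjusted edgeR p of 0.422 and 0.460. The receptors P2rx2, P2ry4, Gpr17 and Adora1 had at most 12 counts in either genotype and were not tested. P2rx3 and P2rx6 were not tested either, with means of 0.185 and 0.065 RPKM in WT and 0.056 and 0.098 RPKM in KO. The libraries of both overlapped between genotypes.

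Platelet and neutrophil markers were also measured, since platelets carry P2rx1 and P2ry12. The summed level of 12 megakaryocyte and platelet markers was 223 to 283 CPM in WT and 255 to 346 CPM in KO. Of 11 tested, 9 had positive log2 ratios, with a median of 1.15. Itga2b, Gp1bb and Gp5 rose, with log2 ratios of 1.20, 1.49 and 1.31 (adjusted edgeR p 0.00248, 0.0477 and 0.0454). Vwf fell by 0.59 on the log2 scale (adjusted edgeR p 0.0292). Over all tested genes 1.22% were called higher and 0.392% lower. The call of Itga2b held in 16 of 16 other settings, while that of Gp1bb held in 8 and was lost with upper-quartile scaling and without any library but WT replicate 1 (adjusted p up to 0.164). That of Gp5 held in 9 and was lost with the replicate block and without WT replicate 2, 3 or 4 or KO replicate 2, 3 or 4 (adjusted p up to 0.152). That of Vwf held in 10 and was lost without WT replicate 2 or 3 or any KO library (adjusted p up to 0.118). The platelet factor gene Pf4, a large part of the summed platelet level, averaged 138 ± 16.7 CPM in WT libraries and 130 ± 31.9 CPM in KO libraries. Summed over 16 neutrophil markers, the level was 326 to 480 CPM in WT and 797 to 982 CPM in KO. Of 14 tested, 14 had positive log2 ratios, with a median of 0.89. Called higher were 6 of the 14, Elane, Ngp, Lcn2, S100a8, S100a9 and Mmp8, against 1.22% of all tested genes. The neutrophil surface gene Ly6g had 9 counts in WT and 8 in KO. The call of Elane was lost without scaling factors and without any library but WT replicate 1 (adjusted p up to 0.147), and the other 5 held in 16 of 16 settings. The part of platelets and neutrophils in the levels of P2rx1, P2ry13, P2ry14 and Il1b was not tested. Of 10 genes known from microglia 7 were tested and 0 called. Their sum was 463 to 609 CPM in WT and 382 to 475 CPM in KO, with Sall1 at 2 counts in WT and 0 in KO, and Cx3cr1 at 219.7 ± 25.4 and 162 ± 29.3 CPM (adjusted edgeR p 0.172).

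Among ectonucleotidases, 5 of 11 genes were tested and 0 were called, while 5 of 5 log2 ratios were positive (median 0.51). Over all tested genes 46.9% were positive. The summed level of the list was 57.1 CPM in WT replicate 1, 82.4 to 108.7 CPM in the other WT libraries and 105.0 to 118.6 CPM in KO. Besides Entpd1 and Nt5e the tested genes were Enpp1, which splits ATP into AMP and pyrophosphate, and the NAD-consuming enzyme genes Cd38 and Bst1. Enpp1 and Cd38, named after their values were seen, had all KO libraries above all WT libraries, as 5.13% of tested genes did. Enpp1 averaged 5.90 ± 0.65 CPM in WT libraries and 8.40 ± 0.92 CPM in KO libraries (adjusted edgeR p 0.176). Cd38 had 40 counts in WT and 113 in KO, at 0.474 and 1.68 CPM, with an adjusted edgeR p of 0.114, and was called by DESeq2 (adjusted p 0.0315). The phosphatase gene Alpl and the ectonucleotidases Entpd2, Entpd3, Entpd8, Enpp2 and Enpp3 did not reach the filter, each with at most 18 counts in either genotype.

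**Figure D5:**
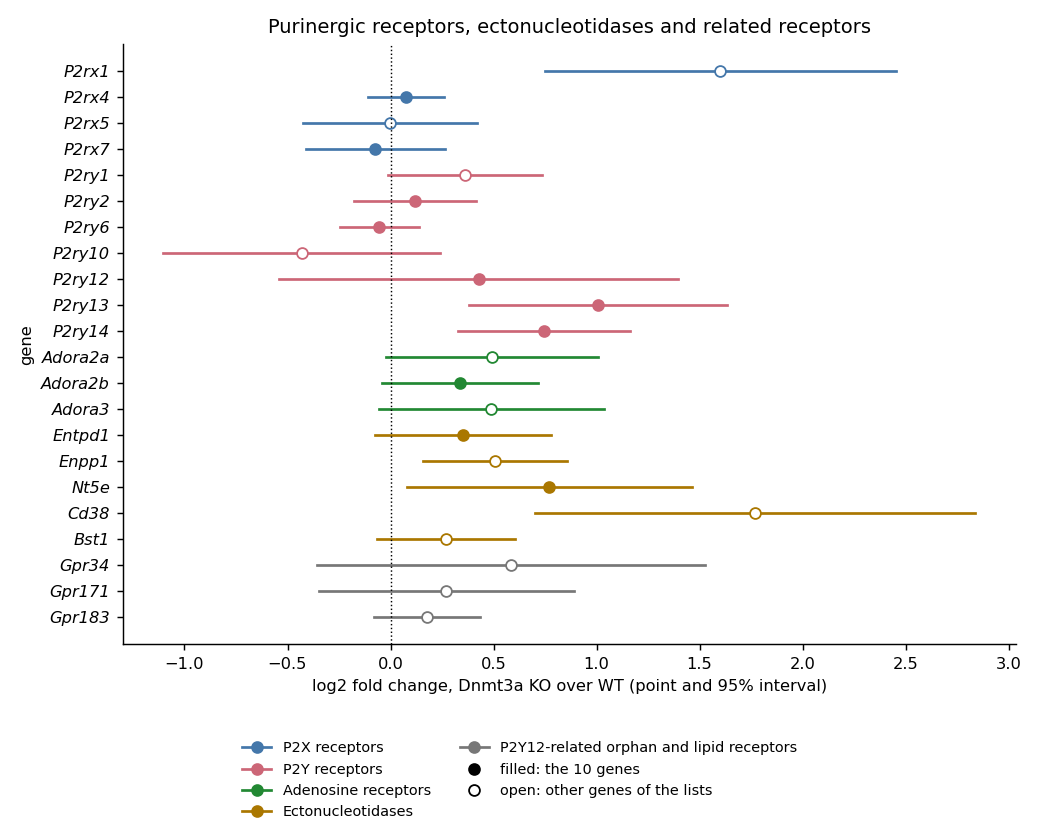
Log2 ratio of Dnmt3a KO over WT with its 95% interval for the tested P2X, P2Y and adenosine receptors, ectonucleotidases and P2Y12-related receptors, filled for the 10 genes and open for others. The intervals of P2rx1, P2ry13, P2ry14, Enpp1, Nt5e and Cd38 lie above 0, none of them passed the adjusted threshold, and P2rx4 and P2ry6 have the narrowest intervals.

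Enzymes that break down AMP and nucleosides held the calls of the wider pathway. Of 15 tested genes of adenosine uptake and breakdown, 2 rose and 0 fell, where 1.22% of all tested genes rose. Pnp, which encodes purine nucleoside phosphorylase, the enzyme that breaks down inosine, was at 122, 117, 122 and 136 CPM in WT, and at 174, 192, 148 and 193 CPM in KO, with an adjusted edgeR p of 0.0420. Ampd3, an AMP deaminase gene, was at 53.6, 76.1, 64.0 and 66.4 CPM in WT, and at 108, 89.2, 96.5 and 88.0 CPM in KO, with an adjusted edgeR p of 0.0478. The groups did not overlap in either gene, and the changes were 1.42-fold and 1.46-fold. The call of Pnp was lost without WT replicate 2, 3 or 4 or KO replicate 1, 2 or 4, with adjusted edgeR p up to 0.150. That of Ampd3 was lost with the replicate block, without scaling factors and without any library but WT replicate 1, with adjusted edgeR p up to 0.140. Reads of Pnp may be shared with its near-identical neighbour Pnp2, which had 98 and 103 counts.

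The adenosine-removing genes Ada (adenosine deaminase) and Adk (adenosine kinase) had log2 ratios of 0.07 ± 0.23 and -0.19 ± 0.16, with adjusted edgeR p of 0.926 and 0.663. Slc29a1, the main equilibrative nucleoside transporter gene, averaged 52.9 ± 11.9 CPM in WT libraries and 42.5 ± 2.68 CPM in KO libraries (adjusted edgeR p 0.419). In the set of P2X7 output genes, 0 of 8 passed the edgeR test. Nlrp3 averaged 267 ± 39.5 CPM in WT libraries and 276 ± 9.70 CPM in KO libraries, and Il1b had a log2 ratio of 0.83 ± 0.20 with an adjusted edgeR p of 0.0709, with all KO libraries above all WT libraries. DESeq2 called Il1b (adjusted p 0.00507), as did edgeR without WT replicate 1, with the replicate block and with no filter. In 12 of 16 settings Il1b was not called, with adjusted p up to 0.211. Over all 10 purinergic lists, 83 of 113 genes were tested, 53 with a positive log2 ratio and a median of 0.15 (-0.02 over all tested genes), and 2 were called higher and 0 lower by edgeR. Without WT replicate 1 that count was 7, and without WT replicate 2 or KO replicate 1, 2 or 4 it was 0. DESeq2 called 7, namely P2rx1, P2ry13, P2ry14, Cd38, Il1b, Pnp and Ampd3.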

How the data were processed

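Reads of 8 poly(A) libraries, 10 ng of RNA each per the labels, were processed with Trimmomatic 0.39, STAR 2.7.0a and featureCounts on mm10, per the submitters' processing notes. For the annotation used in counting, the version is not given in the sources used here. As for values, the authors deposited raw read counts per gene symbol. They also deposited their own comparison, which per the file headers holds per gene a mean normalised count (a signal value), the log2 ratio and its error, the test's score, and raw and adjusted p-values. Its sign was read from Dnmt3a, and 99.5% of 12507 shared genes have the opposite sign to KO over WT. In the counts, 25 symbols had turned into dates (0.215% of counts).

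Genes were filtered (filterByExpr, minimum count 10), given TMM factors and put through edgeR 4.0.16 (quasi-likelihood, R 4.3.3), without a block, with Benjamini-Hochberg adjustment over all genes. A standard error is the log2 fold change over the square root of F. Other settings were scaling by RLE, by upper quartile or not at all, no filter, a filter of 1 CPM in 4 libraries, DESeq2 1.42.0, limma-voom (limma 3.58.1), a replicate block and each library left out. The 10 genes and the lists were chosen with earlier results of these data known. Of 223 listed symbols 222 were found, 4 through RefSeq synonyms. Positions and lengths are GENCODE M21. RefSeq promoter windows were matched by symbol for 9 of the 10 genes. By rule, the named genes were the 10, Dnmt3a, called genes of the lists or within 500 kb, called cell type markers, and Panx1, Ada, Adk, Slc29a1, Adora2a, Adora3, P2rx1, Nlrp3, Il1b, Csf1r, Itga2b, Pf4 and Cx3cr1 whatever their result. Other genes that the text names, such as Med12l, Gpr171, Enpp1, Cd38, Gnai2, Gnas, Adcy6, Adcy2, Entpd7, Cant1 and markers near 0, were chosen after their values were seen and were, apart from Cd38 with DESeq2, not followed through the other settings.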

Additional observations from a re-analysis of the deposited data

Results flagged for a closer look

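In groups of 4 libraries, a library was marked when its gap to the next value, as a share of the group's range, exceeded the 95% critical value of Dixon's test. Chance alone marks about 1 in 20 groups, and 74 groups of 37 named genes were examined. None of the 10 purinergic genes was marked. Pf4 was marked for WT replicate 2, at 112.8 CPM, with the other WT libraries at 142 CPM or more. Mmp8 was marked for KO replicate 4, at 174 CPM, with the other KO libraries between 136 and 140.3 CPM. Vwf was marked for WT replicate 1, at 97.3 CPM, with the others between 73.7 and 76.2 CPM.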

How the results depend on the processing

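Scaling by RLE or upper quartile, the 1 CPM filter and limma-voom moved no count of calls by more than 1.5 times. Without scaling factors, 1 gene of the purinergic lists was called in place of 2. With no filter on low counts edgeR called 399 genes (302 higher, 97 lower in KO), with 2 of the 10 purinergic genes, 6 of the lists and 3 within 500 kb. DESeq2 called 514 (346 higher, 168 lower), with 2, 7 and 3 of these. Leaving out 1 library gave 103 (without WT replicate 2) to 484 (without WT replicate 1) called genes, 82 to 341 higher and 21 to 143 lower, with 0 to 1 of the 10, 0 to 7 of the lists and 0 to 1 within 500 kb. Over these leave-outs the log2 ratio changed sign for P2rx7 (-0.21 to 0.0071, positive at 0.0036 without KO replicate 4), Ada (-0.094 to 0.20, and -0.047 without WT replicate 4), Nlrp3 (-0.045 to 0.10), Csf1r (-0.11 to 0.016, and 0.0045 without KO replicate 1) and Pf4 (-0.26 to 0.0016), none of which was called, and the cause was not tested. With the replicate number as a block, edgeR called 260 genes, 0 of the 10 and 3 of the lists. Deviations of same-numbered libraries correlated at 0.25, 0.28, 0.07 and -0.02 across genes, and not every library correlated best with its own number, so the numbers were not taken to pair the libraries. Genes at low levels rest on fewer counts. P2ry12, at a mean of 3.00 CPM in WT, had 241 counts over the WT libraries, with 8 of them in WT replicate 1.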

Other observations

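The machinery that receptors signal through was tested as well. Of 24 G protein, phospholipase C beta and adenylyl cyclase genes 18 were tested and 0 were called, with a median log2 ratio of -0.03. Gnai2, which encodes a Gi alpha subunit, the class that P2Y12, P2Y13 and P2Y14 couple to, had a log2 ratio of -0.08 with an adjusted edgeR p of 0.843. Gnas, the Gs alpha gene of the class used by Adora2b, had 0.19, with all KO libraries above all WT libraries and an adjusted edgeR p of 0.411. Adcy6 and Adcy2, adenylyl cyclase genes named after their values were seen, had log2 ratios of 1.02 and 1.06 with all KO libraries above all WT libraries and adjusted edgeR p of 0.172 and 0.201. Both were at low levels, 0.344 and 0.255 RPKM in WT and 0.703 and 0.521 RPKM in KO. Adcy7, the listed adenylyl cyclase gene with the highest level, was at 56.5 ± 3.28 RPKM in WT and 49.6 ± 2.80 RPKM in KO. Its WT and KO libraries overlapped.

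Of 15 genes of nucleotide release 10 were tested and 0 called. Panx1, the gene of the pannexin channel that releases ATP, was at 62.1, 49.9, 47.5 and 42.3 CPM in WT and at 64.4, 54.0, 68.4 and 68.1 CPM in KO, an adjusted edgeR p of 0.305. Without WT replicate 1, its highest WT library, it was called (adjusted edgeR p 0.0204). Of 12 intracellular and secreted nucleotidase genes 10 were tested and 0 called. Entpd7 and Cant1, named after their values were seen, had all KO libraries below all WT libraries, with log2 ratios of -0.29 and -0.26 and adjusted edgeR p of 0.212 and 0.288.

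The remaining marker lists gave summed levels of 2.74 to 3.81 CPM in WT and 2.41 to 4.43 CPM in KO for T and NK cells, and 17.8 to 20.6 and 17.8 to 25.7 CPM for mast cells and basophils. Dendritic cell markers summed to 242 to 333 and 258 to 341 CPM, and erythroid markers to 0.519 to 0.826 and 0.451 to 1.17 CPM, and 0 genes of these 4 lists were called. B-cell markers summed to 5.34 to 7.50 CPM in WT and 6.18 to 11.8 CPM in KO, and 1 of 4 tested rose, Cd22, with a log2 ratio of 1.63 (adjusted edgeR p 0.0139). Of the P2Y12-related receptor list, 3 of 5 were tested and 0 called.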
